A study of Drosophila melanogaster with 12 samples.

Results

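The genes described here encode guidance, adhesion and partner-matching proteins of olfactory axons in Drosophila melanogaster. They were taken by name from a list of 10 genes, Sema1a, PlexA, robo1, robo2, robo3, drl, CadN, Ten-m, Ten-a and Dscam1. No cut on measured values was applied, but the choice was made with earlier results of these data known. Of the 15682 genes counted in each library, 9 were matched to the list by their FlyBase identifiers, and Ten-a was not analysed here. RNA was sequenced from 12 samples in 4 groups of 3: antennae of amos mutant adults (replicates 1, 2 and 3), antennae of wild-type adults (replicates 5, 6 and 7), antennal discs of amos mutant larvae (replicates 1, 2 and 3) and antennal discs of wild-type larvae (replicates 1, 2 and 5). The mutants carried the amos3 allele and the wild-type strain was w1118. Whether amos3 had been crossed into the w1118 background for these samples is not stated in the sources used here. All animals were raised at 22 °C and both sexes were pooled. Adult samples held about 300 antennae from flies 0 to 4 h after eclosion, and larval samples held 50 antennal discs, cut away from the eye disc in the third instar.

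Olfactory sensory neurons sit in sensilla on the antenna and send their axons to the antennal lobe of the brain, where neurons with the same receptor converge on a common glomerulus. Axons are steered on the way by ligands and receptors such as Semaphorins and Plexins, Slit and the Robo receptors, or Wnt5 and the Ryk receptor Derailed (the product of drl). Within the lobe, Teneurins, N-cadherin and Dscam1 act when axons sort, match with their partner dendrites or avoid their own branches. Most of this wiring takes place in the pupa, between the larval and the adult stage sampled here. Amos is a transcription factor that specifies the sensory lineages of the Or subsystem, which express odorant receptors, and amos mutants keep the Ir subsystem, which expresses ionotropic receptors. All samples were whole antennae or whole discs, so that fewer cells of a type and less RNA per cell cannot be told apart in any value below.

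Gene counts summed to 36396746 to 50252338 per library in amos mutant antennae and 25150198 to 25721392 in wild-type antennae, and to 39247300 to 43984887 in amos mutant discs and 26796503 to 27661261 in wild-type discs. Every amos library was deeper than every wild-type library. A count of 3, used as the floor, corresponded to between 0.0597 and 0.119 CPM (reads per 1000000 reads counted on genes), a limit that covers counting error only. The amos gene itself had 0 to 3 reads in each library and could not serve to check the genotypes. Orco, the co-receptor of the Or neurons, was at 57.5 to 115 CPM in amos mutant antennae and at 2769 to 3104 CPM in wild-type antennae, whereas it did not exceed 2.30 CPM in any disc. Another marker of mature neurons, nSyb, which encodes a synaptic vesicle protein, was at 1.59 to 5.84 CPM in the 6 discs and at 346 to 649 CPM in the 6 adult samples. Several libraries stood apart. Wild-type disc 5 had 213 CPM of Mhc, the muscle myosin, against at most 9.22 CPM in the other discs, and amos adult 1 had lower counts on long genes (a slope of -0.105 log2 units per doubling of exon length, against -0.00389 to 0.0616 in the other adult libraries). Fat body genes also varied between the discs. The 4 listed summed to 28.6 to 2259 CPM in wild-type discs (median 109) and to 217 to 344 CPM in amos mutant discs.

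Per length of exon, PlexA was the highest of the 9 genes in every group. PlexA encodes Plexin A, a receptor for Semaphorin 1a, and was at 17.6 ± 2.14 FPKM in amos mutant antennae and 18.2 ± 0.983 FPKM in wild-type antennae, against 57.9 ± 0.753 FPKM in amos mutant discs and 63.2 ± 10.1 FPKM in wild-type discs (reads per 1000 bp of exon and 1000000 reads; mean ± SD, n = 3 each). In wild-type antennae it was followed by robo1 (7.79 FPKM) and CadN (6.39 FPKM), and then by Ten-m, Sema1a, drl and robo3, between 3.88 and 3.31 FPKM. In that group the ranges over samples overlapped between Sema1a and drl and between drl and robo3, so that the order of these neighbours was not resolved. The least abundant was robo2, at 0.863 ± 0.0350 FPKM. In wild-type discs the order was different, with drl (56.6 FPKM), robo2 (46.0 FPKM), Ten-m (30.8 FPKM) and robo1 (20.0 FPKM) next to PlexA. There the ranges of PlexA, drl and robo2 overlapped from one to the next, CadN (4.72 FPKM) and Sema1a (4.04 FPKM) also overlapped, and robo3 was last at 0.110 ± 0.0750 FPKM. In amos mutant antennae drl was the lowest, at 1.45 ± 0.148 FPKM, below robo2 at 2.03 ± 0.269 FPKM. The place of Dscam1 depended on the length used. Its annotation joins 75 transcripts with many alternative exons into 26496 bp of exon, which gave 2.70 FPKM in wild-type antennae, whereas its longest transcript of 9145 bp gave 7.82 FPKM and moved it next to robo1.

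**Figure D1:**
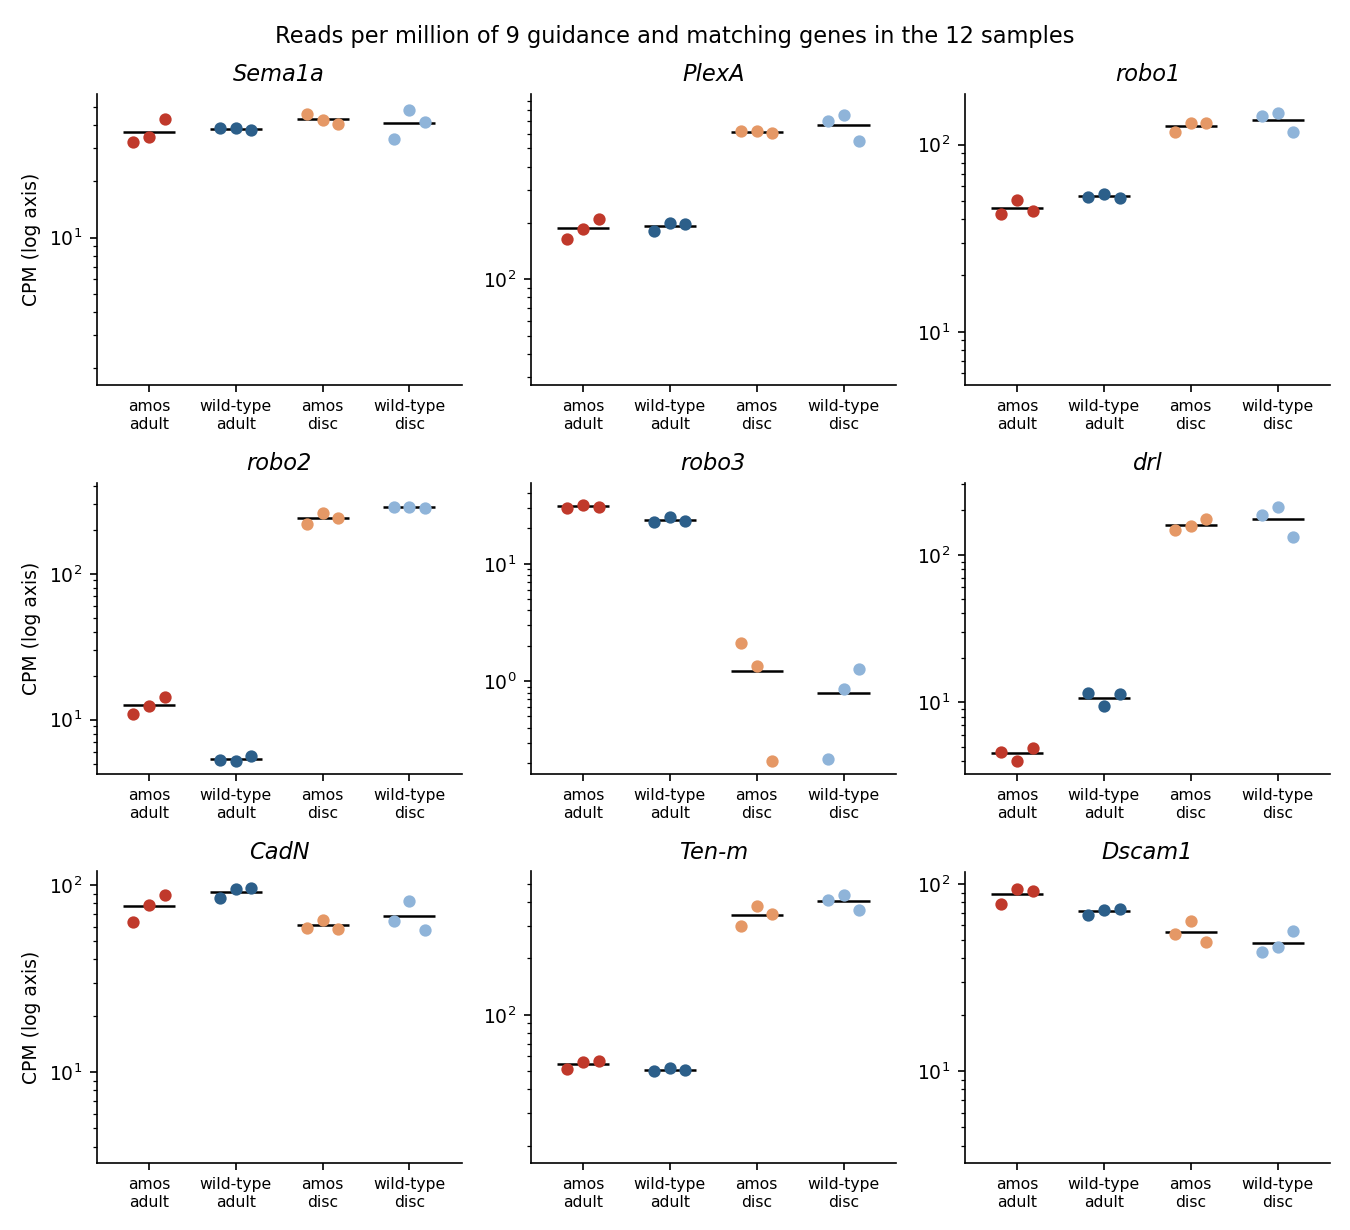
Level of each of the 9 genes in CPM (reads per 1000000 reads counted on genes, log axis, a separate scale for each gene) in the 12 samples, with one point per sample and a black line at the mean of each group of 3. robo2 and drl were separated between amos mutant and wild-type antennae, at 11.0 to 14.3 against 5.21 to 5.61 CPM and at 4.00 to 4.90 against 9.41 to 11.6 CPM, while Sema1a stayed between 32.5 and 48.1 CPM in all samples.

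The comparison of amos mutant with wild-type antennae addresses which genes differ when the Or subsystem is missing. In the adult antenna robo2 and robo3 were higher and drl was lower in the mutants, whereas Sema1a, PlexA, CadN, Ten-m, Dscam1 and robo1 did not pass the threshold of an adjusted p under 0.05. These 3 of 9 genes compare with 4573 of the 9724 genes tested, or 47.0% (22.7% higher and 24.4% lower). The median log2 fold change of the 9 genes was -0.06, against 0.00 over all genes tested.

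Robo2 is a receptor for the repellent Slit. The gene lies on 2L from 1380086 to 1420453 on the minus strand (BDGP6.54). It was at 11.0, 12.5 and 14.3 CPM in the amos mutant antennae, against 5.26, 5.21 and 5.61 CPM in the wild-type antennae. All mutant samples were thus above all wild-type samples, on 399 to 629 reads against 134 to 141 reads. The fitted log2 fold change was 1.21 (SE 0.140, 2.32-fold, edgeR adjusted p = 2.90e-04), and it lay between 1.11 and 1.61 over the 14 alternatives tried, with an adjusted p of at most 0.00284. In the annotation, 20.0% of the exon bases of robo2 are shared with lncRNA:CR44898 on the same strand and 22.9% lie opposite asRNA:CR44897, neither of which is a row of the count tables. Since no source used here says whether counting took account of strand, the robo2 counts can include reads of either transcript and are uncertain to that extent.

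Robo3, a second Slit receptor that helps set the lateral position of axons in the fly nerve cord, is encoded on 2L from 1256417 to 1296596 on the plus strand. robo3 was at 30.1, 31.9 and 30.3 CPM in the amos mutant antennae, against 22.6, 24.8 and 23.3 CPM in the wild-type antennae. Here too the groups did not overlap, although the difference was much smaller than that of robo2. The log2 fold change was 0.36 (SE 0.0735, 1.29-fold, edgeR adjusted p = 0.00495). In 1 fit over all 12 samples the value was 0.45 with an edgeR adjusted p of 0.496, so that the call was lost. That fit also used the widely scattered disc counts of robo3, and their part in this loss was not tested. robo1, which encodes the founding Slit receptor (2R, 22692524 to 22700970, minus strand), was at 42.8, 50.9 and 44.3 CPM in the mutants and at 52.2, 54.8 and 51.7 CPM in the wild type. The mutant samples were the lower ones without overlap, but the change of -0.22 (SE 0.0889, edgeR adjusted p = 0.0714) did not pass the threshold; without amos adult 2 it was -0.30 with an adjusted p of 0.0253.

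Derailed, a Ryk receptor of Wnt5 that steers axons in the fly nervous system, is encoded by drl on 2L from 19190342 to 19208621 on the plus strand. drl was at 4.62, 4.00 and 4.90 CPM in the amos mutant antennae, against 11.6, 9.41 and 11.3 CPM in the wild-type antennae. Every mutant sample thus had less than every wild-type sample, with 168 to 201 reads in the mutants and 242 to 298 in the shallower wild-type libraries. The log2 fold change was -1.28 (SE 0.141, 0.411-fold, edgeR adjusted p = 2.28e-04), and it lay between -1.38 and -0.86 over the 14 alternatives, with an adjusted p of at most 0.0122. Of the genes tested, 93.7% had a higher log2 fold change than drl and 7.40% had a higher one than robo2.

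Sema1a encodes a transmembrane Semaphorin that acts both as ligand and as receptor (2L, 8542147 to 8672041, plus strand), and PlexA its Plexin partner (chromosome 4, 1009895 to 1027101, minus strand). Sema1a was at 32.5, 34.6 and 42.9 CPM in amos mutant antennae, against 38.7, 38.6 and 37.5 CPM in wild-type antennae. PlexA was at 165, 186 and 211 CPM in the mutants, against 181, 200 and 198 CPM in the wild type. For both genes the mutant samples spread around the wild-type values. The log2 fold change was -0.08 for Sema1a (95% interval -0.37 to 0.20) and -0.06 for PlexA (95% interval -0.33 to 0.20). Without amos adult 3, the sample with the highest values of both, Sema1a was at -0.21 with an edgeR adjusted p of 0.0460.

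Among the adhesion and matching genes, CadN encodes N-cadherin, a homophilic adhesion molecule (2L, 17647053 to 17778340, minus strand). It was at 63.3, 78.3 and 88.9 CPM in amos mutant antennae, against 85.0, 94.8 and 95.9 CPM in wild-type antennae, with a log2 fold change of -0.28 (95% interval -0.60 to 0.05, edgeR adjusted p = 0.140). The lowest value was that of amos adult 1, the library with low counts on long genes, without which the change was -0.13, while without amos adult 3 it was -0.40 with an adjusted p of 0.0195. Ten-m encodes a Teneurin that matches olfactory axons with their partner neurons (3L, 22293044 to 22407863, minus strand). It was at 51.2, 56.3 and 56.4 CPM in the mutants, against 49.8, 52.2 and 50.5 CPM in the wild type, and its log2 fold change of 0.08 had a 95% interval of -0.11 to 0.27. The mutant range began within the wild-type range.

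Dscam1 encodes a cell surface protein whose many splice isoforms let neurites recognise their own branches (2R, 7317924 to 7381899, minus strand). It was at 78.6, 93.5 and 91.7 CPM in amos mutant antennae, against 68.1, 72.8 and 73.7 CPM in wild-type antennae. All mutant samples were the higher ones, but the log2 fold change of 0.28 (SE 0.0981, 1.21-fold) came out at the threshold itself, with an edgeR adjusted p of 0.0504. It passed in 9 of the 14 alternatives, among them DESeq2 (adjusted p = 0.0252), scaling by total count (adjusted p = 0.0251) and the fit without amos adult 1 (0.38, adjusted p = 0.00316). Gene-level counts do not tell isoforms apart.

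**Figure D2:**
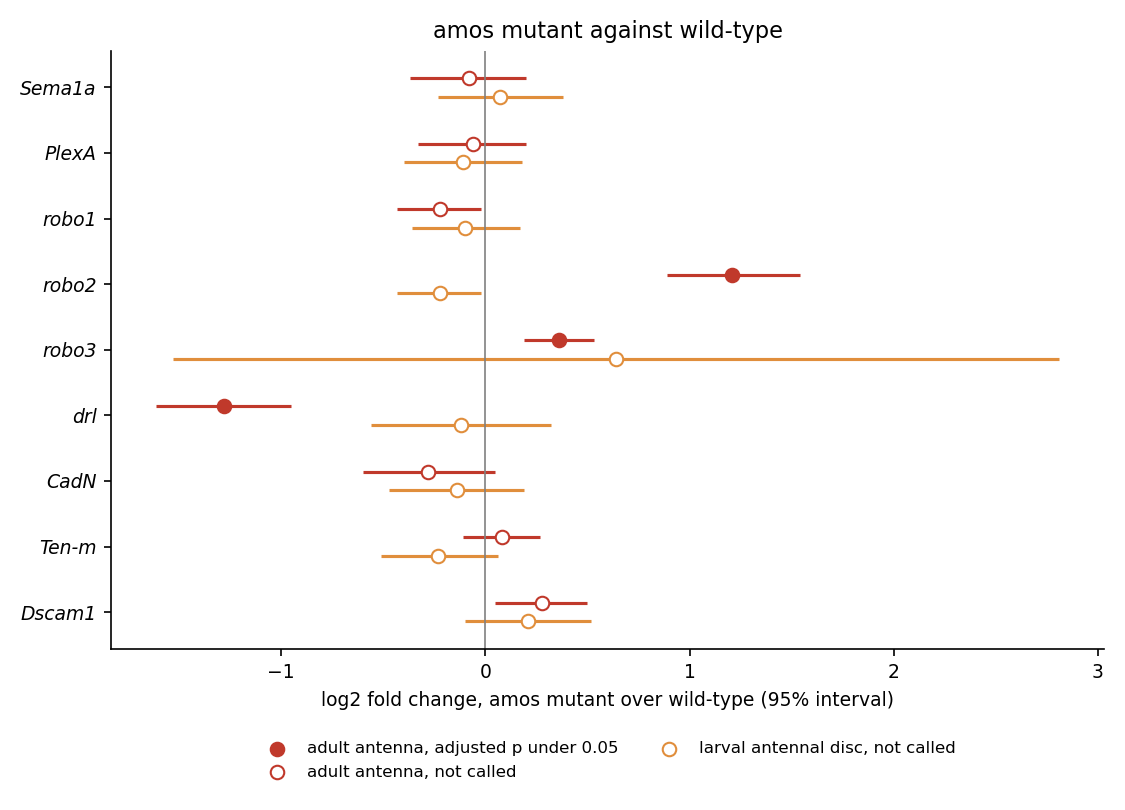
Log2 fold change of amos mutant over wild-type for the 9 genes in the adult antenna (red) and the larval antennal disc (orange), with bars for the 95% interval of the edgeR fit and filled symbols for an adjusted p under 0.05. robo2 (1.21), robo3 (0.36) and drl (-1.28) passed in the adult antenna and none of the 9 in the disc, where robo3 had few reads and the widest interval, -1.53 to 2.81.

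Markers of cell types moved with the genotype as well. The 6 genes of Or neurons were all lower in amos mutant antennae and summed to 57.8 to 118 CPM in the mutants, against 3230 to 3530 CPM in the wild type. The 5 genes of Ir neurons summed to 1397 to 1537 CPM in the mutants and to 733 to 793 CPM in the wild type, and 4 of the 5 were higher. The 9 pan-neuronal genes summed to 1140 to 1409 CPM, against 1947 to 2051 CPM, with 6 of them lower and 1 higher. The genes of Johnston organ neurons, which sense sound and movement of the antenna, summed to 11.0 to 18.0 CPM in the mutants and 5.26 to 7.62 CPM in the wild type, with 1 of the 2 tested higher (nompC). Of the glial genes 1 of 5 was lower, and of the muscle genes 2 of 4 were higher (sums of 100 to 224 CPM in the mutants and 4.40 to 93.0 CPM in the wild type). When counts were scaled on the pan-neuronal genes, robo2 (1.61), robo3 (0.79) and drl (-0.86) kept their direction and their calls. Under that scaling Ten-m (0.50, edgeR adjusted p = 0.0158) and Dscam1 (0.69, edgeR adjusted p = 0.00149) passed the threshold as well. Scaling on the ribosomal protein genes raised the median over all genes by 0.26, with 74.8% in place of 48.2% of the called genes higher. The part of the cell type markers in the changes of the 9 genes was not tested.

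In the third-instar antennal disc none of the 9 genes passed the threshold (edgeR, 0 of 9). The amos gene itself had 2, 0 and 0 reads in the wild-type discs and 0, 0 and 3 in the mutant discs. Whether amos was active in the discs at the time of sampling was not tested. The background was 1176 of 8909 genes tested, or 13.2% (6.57% higher and 6.63% lower). DESeq2 also called 0 of the 9, and at an unadjusted p under 0.05 only robo2 passed. robo2 was at 221, 263 and 241 CPM in amos mutant discs, against 288, 285 and 284 CPM in wild-type discs. The mutant discs were thus all below the wild-type discs, opposite to the adult order, with a log2 fold change of -0.22 (SE 0.0844, unadjusted p = 0.0359, edgeR adjusted p = 0.125).

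The drl level was 147, 157 and 175 CPM in amos mutant discs, against 186, 211 and 131 CPM in wild-type discs. The mutant values lay inside the wild-type range, and the log2 fold change was -0.12 (95% interval -0.56 to 0.32, edgeR adjusted p = 0.674). The low value was that of wild-type disc 5, the library with muscle transcripts, which was also the lowest of the 3 wild-type discs for PlexA, robo1 and Ten-m. Without it drl was at -0.29 and PlexA at -0.23 (edgeR adjusted p = 0.116 and 0.0530), and still 0 of 9 genes passed. Ten-m was at 297, 381 and 345 CPM in amos mutant discs and at 411, 436 and 365 CPM in wild-type discs, with a log2 fold change of -0.23 (edgeR adjusted p = 0.240). The remaining members differed by between -0.14 (CadN) and 0.21 (Dscam1) with intervals across 0, apart from robo3. Its reads numbered only 83, 59 and 9 in amos mutant discs and 6, 23 and 35 in wild-type discs, which left its log2 fold change of 0.64 without resolution (SE 0.902). Muscle markers were not called between the disc genotypes (0 of 4, median -2.33), whereas ey and toy, 2 of the 7 eye disc genes, were lower in amos mutant discs. The summed eye disc genes reached 146 to 184 CPM in the mutant discs and 262 to 352 CPM in the wild-type discs. Among the other markers, the 1 Or neuron gene tested, 1 of 5 glial genes and 1 of 9 pan-neuronal genes were also lower. No gene of the Ir neuron, Johnston organ, antennal disc, haemocyte or fat body lists was called. The part of these markers in the values of the 9 genes was not tested. Scaling on the ribosomal protein genes lowered the median over all genes by 0.15 (16.7% in place of 49.7% of calls higher) and called none of the 9 genes either.

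Whether the genotype acted differently at the 2 stages was tested directly by the interaction of genotype and stage over all 12 samples. Here 2 of the 9 genes passed, robo2 and drl, against 2302 of 10319 genes tested, or 22.3% (14.2% higher and 8.06% lower). For robo2 the genotype effect in the adult antenna exceeded that in the disc by 1.51 on the log2 scale (SE 0.159, edgeR adjusted p = 1.11e-04). For drl the difference was -1.08 (SE 0.246, edgeR adjusted p = 0.0104), and with scaling on the ribosomal protein genes it was -0.74 with an adjusted p of 0.108. That scaling put 89.7% in place of 63.9% of the called genes on the higher side. Ten-m, at 0.39, came nearest of the others (95% interval 0.05 to 0.72, edgeR adjusted p = 0.0900). For robo3 the interval of -1.97 to 1.57 was set by the low disc counts, so that its adult difference was not shown to be confined to the adult.

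The comparison of the adult antenna with the antennal disc addresses how these genes change across the period of wiring. Under the main scaling, 5 genes (robo2, drl, Ten-m, PlexA and robo1) were lower and 3 genes (robo3, Dscam1 and CadN) were higher in the adult antenna in both genotypes, while Sema1a was not called. With scaling on the ribosomal protein genes, robo1 turned to the opposite sign in both genotypes (0.56 in the mutants, 0.22 in the wild type) and PlexA in the mutants (0.31), and in the wild type PlexA was at -0.22 and lost its call (edgeR adjusted p = 0.305). The counts of 8 of 9 have to be read against a background in which 85.6% of 9985 genes tested in the amos mutants (43.8% higher, 41.8% lower) and 86.6% of 9770 in the wild type (43.2% higher, 43.4% lower) were called. The median log2 fold change of the 9 genes was -1.12 in the mutants and -1.10 in the wild type, against 0.05 and 0.00 over all genes tested.

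The largest differences were those of robo2, robo3 and drl. robo2 in amos mutants was at 11.0 to 14.3 CPM in antennae against 221 to 263 CPM in discs, a log2 fold change of -3.93 (SE 0.144, edgeR adjusted p = 1.87e-07). In the wild type it was at 5.21 to 5.61 CPM in antennae against 284 to 288 CPM in discs, a log2 fold change of -5.47 (SE 0.0687, edgeR adjusted p = 5.53e-08). By the fit, the adult level was 0.0658 of that in the disc in the mutants and 0.0226 in the wild type, with ranges far apart. For drl the order of the genotypes was the reverse. Its log2 fold change was -4.82 in amos mutants (4.00 to 4.90 CPM in antennae, 147 to 175 CPM in discs, edgeR adjusted p = 5.99e-08) and -3.76 in the wild type (9.41 to 11.6 CPM in antennae, 131 to 211 CPM in discs, edgeR adjusted p = 6.41e-06).

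robo3 ran the other way and had few and scattered reads in the discs, 6 to 83 (0.209 to 2.11 CPM) in the 6 disc samples. In the amos mutants it was at 30.1 to 31.9 CPM in antennae, with a log2 fold change over the discs of 5.00 (SE 0.579, edgeR adjusted p = 9.49e-05), and in the wild type at 22.6 to 24.8 CPM, with a log2 fold change of 5.17 (SE 0.498, edgeR adjusted p = 8.21e-05). Ten-m was lower in the adult antenna by -2.31 in the mutants (95% interval -2.59 to -2.02) and -2.72 in the wild type (95% interval -2.94 to -2.51). PlexA was at -1.38 and robo1 at -1.12 in the mutants, and at -1.53 and -1.10 in the wild type, all with an edgeR adjusted p of at most 7.05e-05 under the main scaling. Dscam1 was higher in the adult antenna by 1.00 in the mutants and 0.83 in the wild type (edgeR adjusted p = 1.45e-04 and 3.28e-04). CadN was higher by 0.67 and 0.70 (edgeR adjusted p = 0.00288 and 0.00373), and in the mutants its change was 0.16 with an adjusted p of 0.0553 once the trend with gene length was removed.

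Sema1a, the partner of PlexA, was not called between the stages in either genotype under the main scaling. Its log2 fold change was 0.11 in the mutants (95% interval -0.20 to 0.42) and 0.16 in the wild type (95% interval -0.16 to 0.48). By mean CPM, which lacks the scaling of the fit, Sema1a was lower in antennae than in discs in both genotypes. The means were 36.6 against 42.8 CPM in the mutants and 38.3 against 41.2 CPM in the wild type. In the wild type it passed with at least 10 counts in every sample (0.39, edgeR adjusted p = 0.0292) and without wild-type disc 2 (0.31, edgeR adjusted p = 0.0454). Scaling on the ribosomal protein genes moved the median of all genes by 1.73 in the mutants and by 1.32 in the wild type and gave 1.80 and 1.48 for Sema1a. The values of the other genes moved by about the same amount, so that only differences between genes are independent of this choice. By that scaling 86.2% of calls in the mutants and 79.2% in the wild type were higher, in place of 51.2% and 49.8%. Markers of mature cells differed between the stages too, with 8 of 9 pan-neuronal genes and 5 of 5 glial genes higher in the adult antenna in both genotypes, and the eye disc genes lower. Their part in the changes of the 9 genes was not tested.

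**Figure D3:**
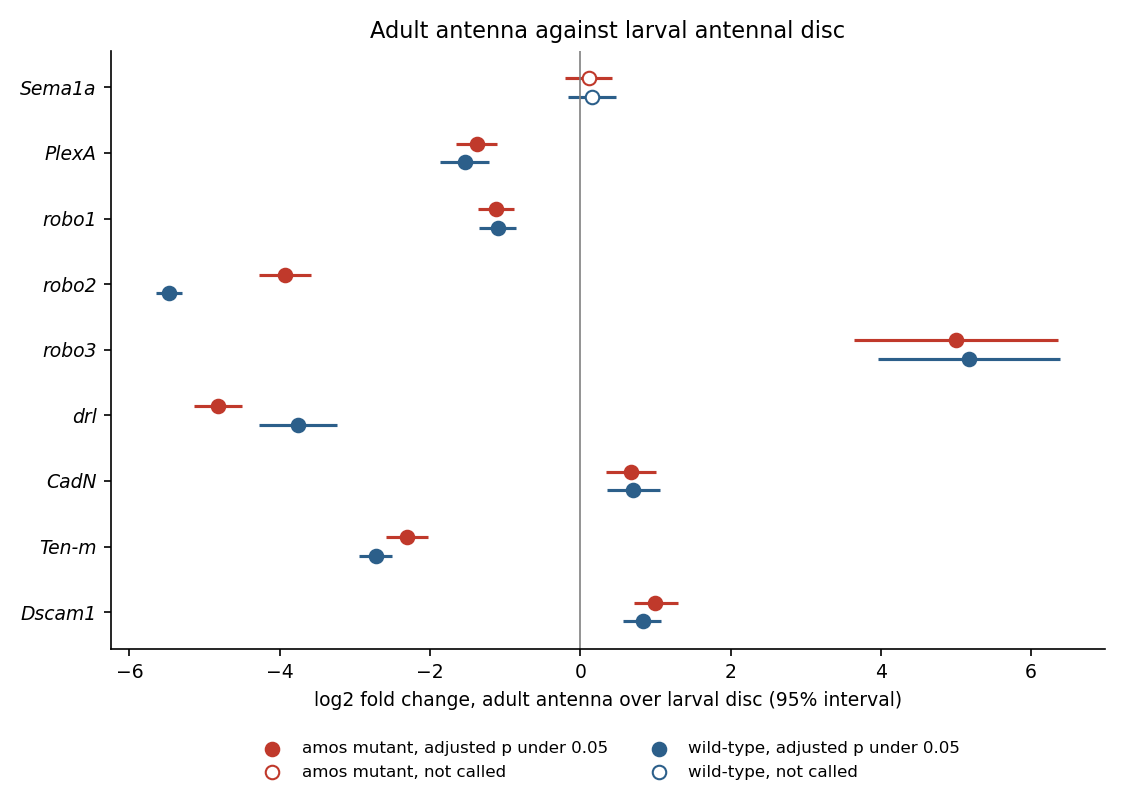
Log2 fold change of the adult antenna over the larval antennal disc for the 9 genes in amos mutants (red) and in the wild type (blue), with bars for the 95% interval of the edgeR fit and filled symbols for an adjusted p under 0.05. Values ranged from -5.47 (robo2, wild type) to 5.17 (robo3, wild type), and with scaling on ribosomal protein genes robo1 in both genotypes and PlexA in the mutants changed sign.

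Because a ratio of 2 genes within a library is independent of the scaling between libraries, the 3 robo genes were also compared with each other. As a share of their summed FPKM, robo1 made up 51.5% ± 1.92, robo3 33.0% ± 1.25 and robo2 15.5% ± 1.85 in amos mutant antennae. In wild-type antennae robo1 made up 65.1% ± 0.551, robo3 27.7% ± 0.513 and robo2 7.22% ± 0.445 (SD, n = 3 each). The mutant antennae thus had a smaller part of robo1 and larger parts of the other 2 genes, without overlap between samples for any of the 3. In the discs robo2 was the main gene, with 67.5% ± 0.929 in amos mutants and 69.6% ± 2.44 in the wild type, and robo3 did not exceed 0.559%.

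The ratio of robo2 to robo1 was 0.280, 0.269 and 0.354 in amos mutant antennae, against 0.110, 0.104 and 0.119 in wild-type antennae. On the log2 scale the means differed by 1.43, and in the discs, with ratios of 2.03 to 2.21 in the mutants and 2.12 to 2.65 in the wild type, by -0.14. The ratio of robo3 to robo1 was 0.598 to 0.671 in mutant antennae and 0.413 to 0.431 in wild-type antennae, a difference of 0.59. The ratio of PlexA to Sema1a was 4.72 to 5.17 in mutant antennae and 4.49 to 5.06 in wild-type antennae, a difference of 0.02 with overlapping samples. Both robo ratios were separated in the adult antenna, with an exact 2-sided permutation p of 0.1, the smallest that 3 samples against 3 allow, and a Benjamini-Hochberg adjusted p of 0.3 over the 6 ratios tested.

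**Figure D4:**
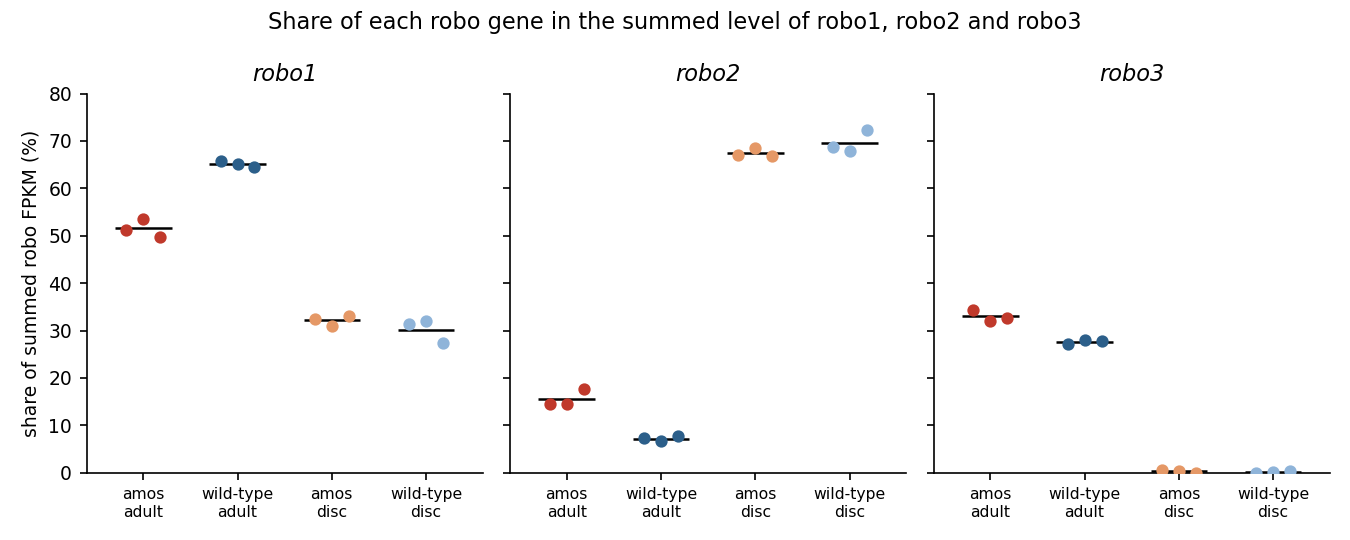
Share (%) of robo1, robo2 and robo3 in their summed FPKM in the 12 samples, with one point per sample and a black line at the mean of each group of 3. robo2 took 14.4% to 17.6% in amos mutant antennae and 6.77% to 7.66% in wild-type antennae, and 66.9% to 72.4% in the discs of both genotypes.

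The other genes of these pathways were taken from a list of 43, of which 38 were matched to the count tables (Sema5c, Dscam2, Pak, Nrg and hbs were not analysed here). In amos mutant antennae 8 of the 37 tested were higher and 16 were lower than in the wild type, beside 22.7% and 24.4% of all genes tested, and the median log2 fold change was -0.09. This balance depended on the scaling, with 13 higher and 12 lower when scaled on ribosomal protein genes, and 15 higher and 8 lower when scaled on pan-neuronal genes. The largest increases were those of otk (2.14), which encodes a transmembrane partner of Plexins, trn (1.92) and caps (1.27), which encode leucine-rich repeat adhesion proteins, and NetB (0.99), which encodes a Netrin. For otk the reads were few, with 9 to 16 in wild-type antennae (0.358 to 0.622 CPM) and 72 to 110 in mutant antennae (1.89 to 3.02 CPM). For trn, amos mutant antennae had 35.9, 40.1 and 46.8 CPM, against 10.4, 10.8 and 10.8 CPM in wild-type antennae. The largest decreases were those of CadN2 (-3.09), a second N-cadherin gene, of Dscam4 (-2.69) and Dscam3 (-2.40), relatives of Dscam1, and of sns (-1.53), an immunoglobulin protein that pairs with Kirre and Rst. CadN2 was at 1.21 to 1.77 CPM in the mutants, against 11.4 to 15.5 CPM in the wild type, so that the small CadN2 pool differed where CadN itself did not pass. All 8 had an edgeR adjusted p of at most 0.00867, and of the 8 Dscam3 lost its call in 1 fit over all 12 samples (-2.31, adjusted p = 0.0972).

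The Wnt5 and Ryk family moved with drl in the adult antenna under the main scaling. The ligand Wnt5 was at 7.86, 7.22 and 7.54 CPM in amos mutant antennae, against 12.1, 12.6 and 12.4 CPM in wild-type antennae, a log2 fold change of -0.74 (SE 0.0918, edgeR adjusted p = 4.28e-04). The Ryk receptor genes Drl-2 (-0.88) and dnt (-0.50) were also lower (edgeR adjusted p = 0.00299 and 0.0130). These 3 genes were singled out after their values were seen. Scaled on the pan-neuronal genes, they were at -0.31, -0.49 and -0.07 and none of the 3 passed, in contrast to drl. The call of Drl-2 was lost in 1 fit over all 12 samples (-0.79, edgeR adjusted p = 0.280), and that of dnt with scaling on ribosomal protein genes (-0.23, edgeR adjusted p = 0.196). The call of dnt was also lost without the replicate 5 or the replicate 6 library of the wild-type antennae (edgeR adjusted p = 0.0527 and 0.0571). On the Slit side, sli, the ligand of the Robo receptors, was not called (-0.14, edgeR adjusted p = 0.30), while comm, which removes Robo from the axon surface in the fly embryo, was higher (0.68, edgeR adjusted p = 0.00154).

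**Figure D5:**
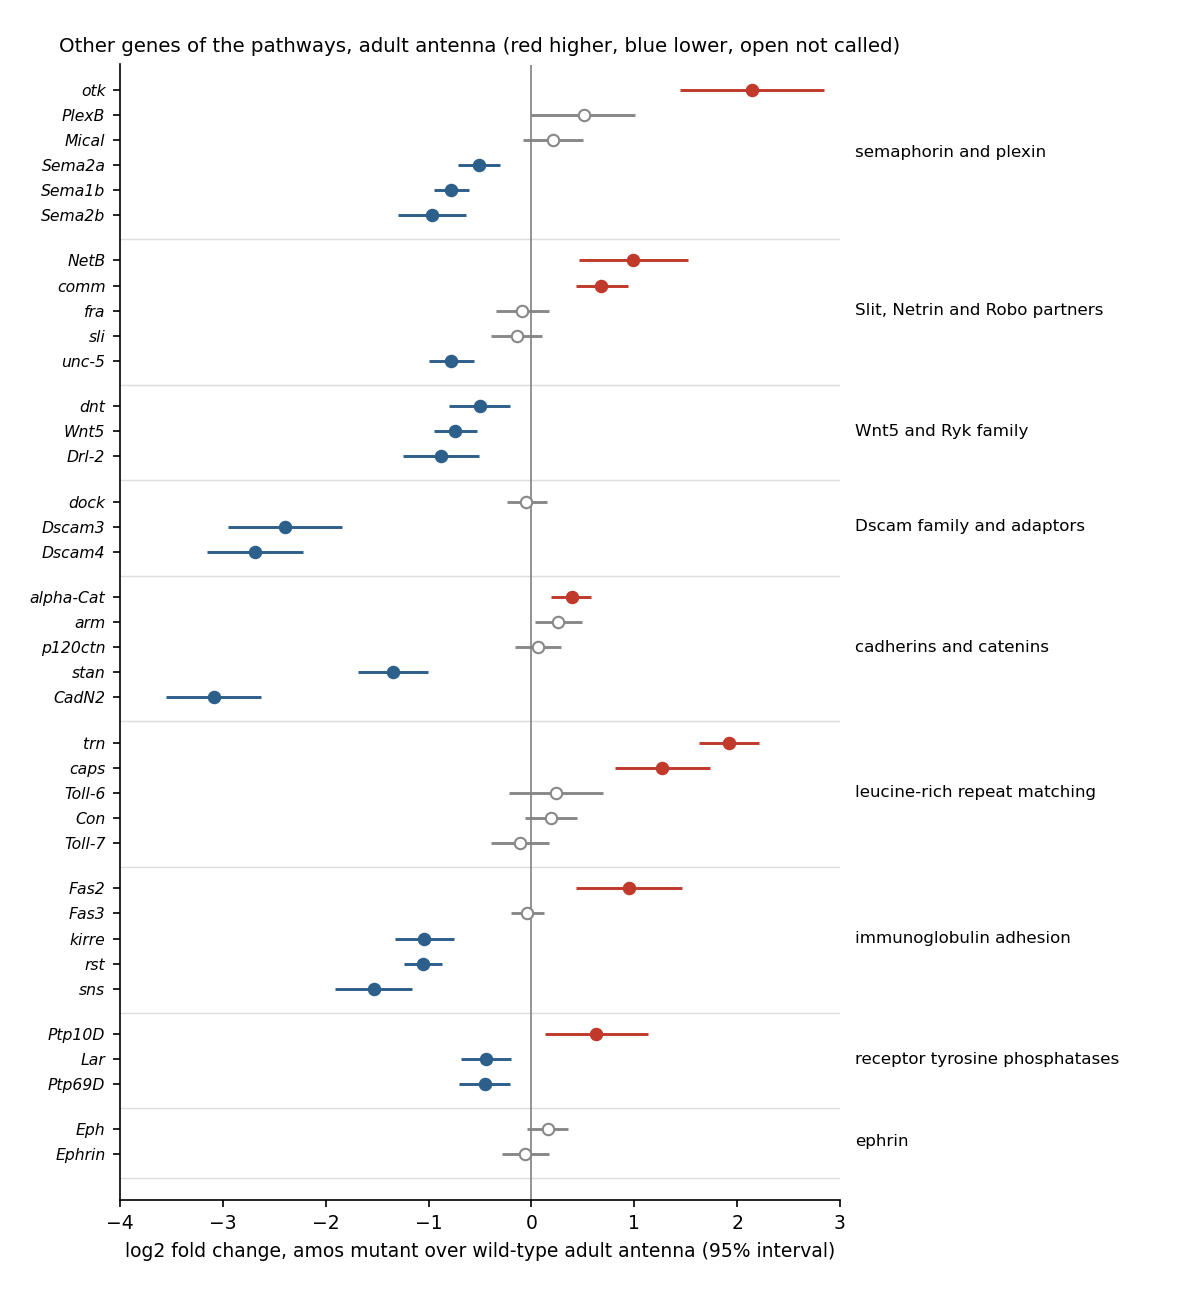
Log2 fold change of amos mutant over wild-type adult antenna for the 37 tested genes of the pathway list, by class, with bars for the 95% interval of the edgeR fit, in red for higher, blue for lower (adjusted p under 0.05) and open symbols for genes not called. Of them 8 were higher and 16 lower, or 13 and 12 with scaling on ribosomal protein genes, and all 3 genes of the Wnt5 and Ryk family were on the lower side under the main scaling.

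In the discs, where 6.57% of all genes tested were higher and 6.63% lower, 1 of 36 tested pathway genes, the wiring receptor gene Toll-7 (0.46, edgeR adjusted p = 0.0274), was higher in amos mutants and 4 were lower. These were Dscam4 (-5.27, edgeR adjusted p = 0.0194), NetB (-0.60, adjusted p = 0.00535), the Netrin receptor gene unc-5 (-0.42, adjusted p = 0.0234) and the phosphatase gene Ptp10D (-0.41, adjusted p = 0.0429). Over the 15 alternatives NetB kept its call in 14, unc-5 in 11, Toll-7 in 8 and Ptp10D in 5. Leaving out any 1 disc library ended the call of Ptp10D (edgeR adjusted p of 0.0557 to 0.117), and leaving out any 1 except wild-type disc 5 ended that of Toll-7 (0.0615 to 0.105), which was also lost with scaling on ribosomal protein genes (0.30, adjusted p = 0.220). The call of unc-5 was lost without amos disc 1, amos disc 3, wild-type disc 1 or wild-type disc 2 (edgeR adjusted p of 0.0615 to 0.0829). Dscam4 was at 2.57, 0.477 and 0.116 CPM in amos mutant discs, against 35.2, 32.0 and 53.3 CPM in wild-type discs. The groups were far apart, yet the 3 mutant discs, with 101, 21 and 5 reads, differed widely among themselves, and the call was lost without amos disc 2 or wild-type disc 1 (edgeR adjusted p = 0.0671 and 0.0615). In the adult antenna Dscam4 was at 3.01 to 5.31 CPM in the mutants and at 22.6 to 28.8 CPM in the wild type, so that the difference was present at both stages. The number of disc calls in the list was unstable, with 1 called without wild-type disc 1, 2 called without wild-type disc 2 or without any 1 of the amos discs, and 9 called by DESeq2.

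Across stages, 9 of the 38 pathway genes were higher in the adult antenna in each genotype, and 26 in the mutants and 28 in the wild type were lower. Over all genes tested, 43.8% were higher and 41.8% lower in the mutants, and 43.2% higher and 43.4% lower in the wild type. The median log2 fold change of the list was -0.98 in the mutants and -1.22 in the wild type, against 0.05 and 0.00 over all genes tested. With scaling on the ribosomal protein genes, 21 were higher and 11 lower in the mutants, and 17 higher and 13 lower in the wild type. Con, Drl-2, CadN2 and Toll-6 were the genes with the largest increases in both genotypes, between 4.03 and 4.97 in the mutants and between 4.08 and 5.86 in the wild type. Their disc reads were few, with 1 to 14 for CadN2, 1 to 22 for Toll-6, 2 to 39 for Drl-2 and 31 to 75 for Con. The size of these increases is uncertain to that extent. Among the largest decreases of both genotypes were otk (-5.84 in the mutants, -7.77 in the wild type), the secreted Semaphorin gene Sema2a (-4.80 and -4.40) and the Netrin receptor gene fra (-4.65 and -4.27). The antennal reads of otk were few, 72 to 110 in the mutants and 9 to 16 in the wild type. CadN2 and Drl-2 thus had the same direction across stages as CadN, but the opposite one to drl, whose relative Drl-2 was at 6.98 to 10.3 CPM in mutant antennae, 15.2 to 17.2 CPM in wild-type antennae and at most 0.994 CPM in the discs.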

How the data were processed

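Per the labels and the study's methods, the authors sequenced poly(A) RNA with a stranded kit, trimmed and mapped the reads (cutadapt 1.2.1, TopHat2 2.0.9, BDGP5 in the submitters' processing notes) and counted them per gene with HTSeq 0.5.4p3, and they deposited whole-number counts for each library. The trimming tool and annotation release given in the methods differ from those notes. The 5 lines of unassigned reads (17.9% to 33.1% of reads) were left out. Identifiers were paired with symbols, positions and exon lengths of BDGP6.54 for 15002 of 15682 genes.

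Genes were filtered with filterByExpr, scaled by TMM and tested in edgeR 4.0.16 (quasi-likelihood test, Benjamini-Hochberg adjustment over all genes, threshold 0.05) in R 4.3.3, within the groups compared and over 12 samples for the interaction. CPM and FPKM were computed from the counts without TMM, so that fitted changes differ from their ratios. The TMM factors were 0.860 to 0.929 in the adult libraries and 1.07 to 1.12 in the disc libraries. Fitted changes of adult over disc are thus shifted upward from the ratios of CPM, and for Sema1a the direction differs. Ratios of genes were tested by exact permutation (scipy 1.17.1). The fits were tested on simulated data in which 200 genes were changed, far fewer than were called in each real comparison. The rates below therefore need not hold for the fits of the real data. Between 4 and 15 unchanged genes were called in each simulation. Of changes of 1 log2 unit, the adult genotype fit recovered 80 of 97, the disc fit 56 of 98 and the interaction fit 43 of 100. The stage fits recovered 61 of 97 in the wild type and 67 of 98 in the mutants. Of changes of 2 log2 units, the disc fit recovered 76 of 102. A gene that was not called can thus still differ. Alternatives were DESeq2 1.42.0, scaling by total count, 87 ribosomal protein genes or 9 pan-neuronal genes, other count filters, removal of the length trend, 1 fit over 12 samples, a replicate block and leaving out each library. Those of the pathway list were added after seeing the data. All listed genes were described, and of the pathway list up to 4 higher and 4 lower called genes with the largest change were named per comparison. The genes and lists were chosen with earlier results of these data known. The samples of a group were biological replicates, all of pooled animals, and every pair of replicate libraries differed by more than sampling noise (chi-square of 6.73 to 143 per degree of freedom).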

Additional observations from a re-analysis of the deposited data

Results flagged for a closer look

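The effect of the amos genotype differed between the adult antenna and the antennal disc for 2 of the 9 axon guidance genes and 13 of the 38 pathway genes by the interaction test (edgeR, adjusted p under 0.05), beside 22.3% of all genes tested. Among the axon guidance genes, robo2 had a genotype effect 1.51 higher on the log2 scale in the adult antenna than in the disc, and drl one with a difference of -1.08. In the pathway list, the difference was 2.17 for trn, 1.91 for otk, 1.67 for NetB and 1.39 for caps. That of otk rested on only 9 to 16 reads in wild-type antennae. For NetB the direction itself was opposite, with 0.99 in the adult antenna and -0.60 in the disc, both called. The difference was -1.38 for stan, which encodes the atypical cadherin Flamingo, -1.24 for rst, -0.89 for sns, -0.80 for Sema2b and -0.69 for Wnt5. Over 20 alternatives (19 for otk), the call was kept in 11 for Sema2b, 15 for sns, 17 for Wnt5 and 17 for otk. It was kept in 19 for NetB, caps, stan and rst, and in 20 for trn. Sema2b lost it without any 1 of amos adult 1 or 2, wild-type adult 5, 6 or 7 and amos disc 2 or 3 (edgeR adjusted p of 0.0527 to 0.0961), and sns without wild-type adult 6 or 7 (edgeR adjusted p = 0.0572 and 0.0508). The other 4 pathway genes called were Ptp10D (1.12), Fas2 (1.11), Fas3 (0.36) and Toll-7 (-0.49). With scaling on the ribosomal protein genes 11 pathway genes were called, all on the higher side, so that none of the negative differences of the list passed there.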

How the results depend on the processing

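For the axon guidance genes, 112 of 126 adult genotype values, 130 of 134 disc values, 177 of 179 interaction values, 111 of 116 wild-type stage values and 128 of 134 amos mutant stage values kept their direction and their side of the threshold. With scaling on ribosomal protein genes, robo1 turned to 0.22 in the wild-type stage comparison and to 0.56 in that of the mutants, and PlexA to 0.31 in the mutants. In the adult antenna 5 of the guidance genes were called with scaling on pan-neuronal genes, and 3 to 5 when a library was left out, with 5 without amos adult 3. In the disc, 2159 genes were called by DESeq2 and 2060 in 1 fit over 12 samples, in place of 1176, and 201 to 1376 when a library was left out. Of the pathway list, DESeq2 called 9 in the disc in place of 5, and leaving out a library gave 1 to 6 in the disc and 8 to 17 in place of 13 for the interaction. The causes were not tested.

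Whether equal replicate numbers mark paired samples is not stated in the sources used here. Same-numbered discs had correlations of their deviations of -0.191 and -0.103, against -0.329 to 0.254 for discs of unlike number. Same-numbered mutant adults and discs had 0.0862, -0.00503 and 0.0369, and the wild-type adult and disc of number 5 had -0.0848. With so few pairs these values cannot tell whether the samples were paired. With the replicate block, 2 guidance genes were called in the disc in place of 0 (Dscam1 at 0.39 and drl at -0.38), and 2 with the block and the length trend removed. Only same-numbered discs inform the genotype effect under the block, so these disc values rested on 2 pairs. The remaining disc of each genotype had no partner and did not enter that effect. The block gave 1045 interaction genes, or 1210 with the length trend removed, in place of 2302, and 6 of the pathway list in place of 13. Only the wild-type adult and disc of number 5 shared a block, so the wild-type stage effect rested on them alone. That disc is the library with muscle transcripts. The lower numbers of calls therefore do not show an effect of pairing. With the block and the length trend removed, Sema1a in the mutant stage comparison was at -0.27 and passed the threshold (edgeR adjusted p = 0.0265). The adult genotype groups share no number and could not be blocked.

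Depth limited robo3 in the discs, with 6 to 83 reads. Gene-level counts do not resolve isoforms of Dscam1. The place of Dscam1 in the FPKM order depends on the transcript length used. A ratio of Ten-a to Ten-m was planned and not run, because Ten-a was not analysed.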

Other observations

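For each guidance gene, the other gene with the most similar pattern was found by Pearson's r of log2(CPM + 0.5) over the 12 samples, among 9162 genes. Since most genes differ between the stages and samples of a group share stage and genotype, these values describe the pattern only. The most similar gene was Sgsh, which encodes a lysosomal sulfatase, for drl (r = 0.998), with group means of 4.34 CPM in mutant antennae, 8.40 CPM in wild-type antennae, 91.4 CPM in mutant discs and 101 CPM in wild-type discs. For robo2 it was a gene without a symbol in the annotation used, FBgn0033039 (r = 0.999), at 43.0 CPM in mutant antennae, 23.3 CPM in wild-type antennae, 482 CPM in mutant discs and 526 CPM in wild-type discs. For robo3 it was Gabat, which encodes the GABA transaminase (r = 0.993), and for Dscam1 Idgf3, which encodes an imaginal disc growth factor (r = 0.964). Idgf3 differed far more than Dscam1, with means of 315 CPM in mutant antennae and 105 CPM in wild-type antennae, and 11.8 CPM in mutant discs and 7.99 CPM in wild-type discs. For PlexA it was Fmr1 (r = 0.997), for Ten-m spdi (r = 0.999) and for robo1 CG30389 (r = 0.997). CadN was nearest to Dap160 (r = 0.934) and Sema1a to tna (r = 0.813), the lowest of the 9 values.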
